A study of Mus musculus with 6 samples.

Results

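The 32 genes described here encode enzymes of serine synthesis, of the folate cycle that carries one-carbon units, and of purine, pyrimidine and deoxynucleotide synthesis. They were taken by gene symbol from the deposited table of read counts, and all 32 were among its 16729 genes. RNA-seq was performed on frozen brain tumors formed by mG7080 cells in Esm1 WT or Esm1 KO C57BL/6 hosts (C57BL/6J in the study's methods), with 3 libraries from each group (WT 1 to WT 3 and KO 1 to KO 3). The mG7080 line is a sphere culture from a tumor of genetically engineered mice, and both groups were injected with this same line. Esm1, which encodes the secreted proteoglycan Endocan, was deleted in the KO hosts, whereas the injected tumor cells carried no such deletion. All hosts were female, were given 500000 cells into the brain and were 6 to 8 weeks old, although the reporting summary lists older animals. The labels number the samples as separate tumors, and each library held RNA of the tumor cells together with that of host cells, in tumors grown from 1 line.

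Cells make serine from a glycolytic intermediate, and serine gives up a carbon unit to folate as it becomes glycine. Those carbon units, in the cytosol and in mitochondria, are used to build the purine ring and to methylate dUMP to dTMP. Purines and pyrimidines are assembled as ribonucleotides, reduced to deoxynucleotides by ribonucleotide reductase and consumed in DNA replication, so dividing tumor cells are known for high levels of these enzymes, while neurons and most glia of the adult brain divide little or not at all.

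Library totals ran from 17632070 to 22241832 counted reads, and levels below are in CPM (counts scaled to library size, with edgeR's TMM factors), listed for each group in the order of the library numbers. Every member had at least 18 reads in every library, and all 32 passed the filter on low counts. Esm1 itself was at 1.19, 1.09 and 4.05 CPM in the WT libraries, in order of their numbers, and was lowest in KO 1 (0.057 CPM) and KO 3 (0.208 CPM). The library labelled KO 2 had 1.07 CPM, next to WT 2, so its Esm1 level does not set it apart from the WT libraries as its label would. In the leading principal component over all genes (84.2% of the variance) KO 2 lay between WT 1 and WT 3, away from KO 1 and KO 3. Results are therefore given over all 6 libraries, over the 5 without KO 2, and over the 4 that the study's own RNA-seq table covers (WT 1, WT 2, KO 1 and KO 3). KO 2 was set apart here by its values in these same counts. The p-values and calls of fits without it are conditional on that choice, because the spread among KO libraries is smaller once it is left out.

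Of the 32 genes, 30 were lower and 2 (Impdh1 and Rrm2b) were higher in Esm1 KO tumors on average, in each of the 3 sets of libraries. Over all 6 libraries the median log2 fold change (KO minus WT) of the members was -0.997, beside -0.02 over all 16166 genes tested. Over the 5 libraries without KO 2 it was -1.32 beside -0.02, and over the 4 libraries it was -1.34 beside -0.03. Every KO library lay below every WT library for 19 of the 32 genes, against 14.6% of all genes tested. Every KO library lay above every WT library for 1 member (Impdh1), against 13.2% of all genes. The groups overlapped for the remaining 12. Without WT 1 the count of members with every KO library below every WT library was 30, against 32.2% of all genes, and without KO 2 it was 29, against 40.4%.

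In edgeR's quasi-likelihood test over all 6 libraries, 0 of the 32 members passed an adjusted p of 0.05 (0.0% of all genes did), and the smallest adjusted p was 0.184. At an unadjusted p under 0.05 there were 22 members lower and 2 higher in KO, beside 11.9% and 15.2% of all genes. These 24 were 3 without WT 2, 6 without WT 3, 3 without KO 1 and 7 without KO 3, where 6.29%, 7.38%, 7.12% and 7.98% of all genes had such a p. DESeq2 called 3 members lower over the same 6 libraries (Impdh2, Mthfd1 and Mthfd1l), where it called 2.71% of all genes lower. edgeR's exact test and limma-voom called 0 members, beside 1.16% and 0.0% of all genes in either direction.

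Without KO 2, 28 members were called lower (28.3% of all genes were) and 2 higher (24.5% of all genes were). Over the 4 libraries 21 members were called lower, where 13.9% of all genes were, and 0 were called higher, where 2.87% of all genes were. In that fit 9 members were called lower by more than 4-fold, where 6.23% of all genes were. They were Phgdh, Shmt1, Shmt2, Mthfd2, Cad, Rrm1, Rrm2, Tyms and Tk1. Within the 4 libraries the 21 calls became 9 without KO 1 and 5 without KO 3, where 5.62% and 1.54% of all genes were called lower. Without WT 1 they became 30, of which 28 were lower and 2 higher, where 27.5% and 25.9% of all genes were. In bulk tumor RNA, fewer cells of a type and less RNA per cell cannot be told apart.

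The spread within each group followed the same libraries across the list. Among WT libraries, WT 1 had the lowest level of 30 of the 32 genes (43.7% of all genes tested) and WT 2 the highest of 25 (34.0% of all genes). Among KO libraries, KO 2 had the highest level of 28 members (46.2% of all genes). It lay below all WT libraries for 20 members, within their range for 11 and above it for 1, beside 21.3%, 54.6% and 24.1% of all genes.

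**Figure D1:**
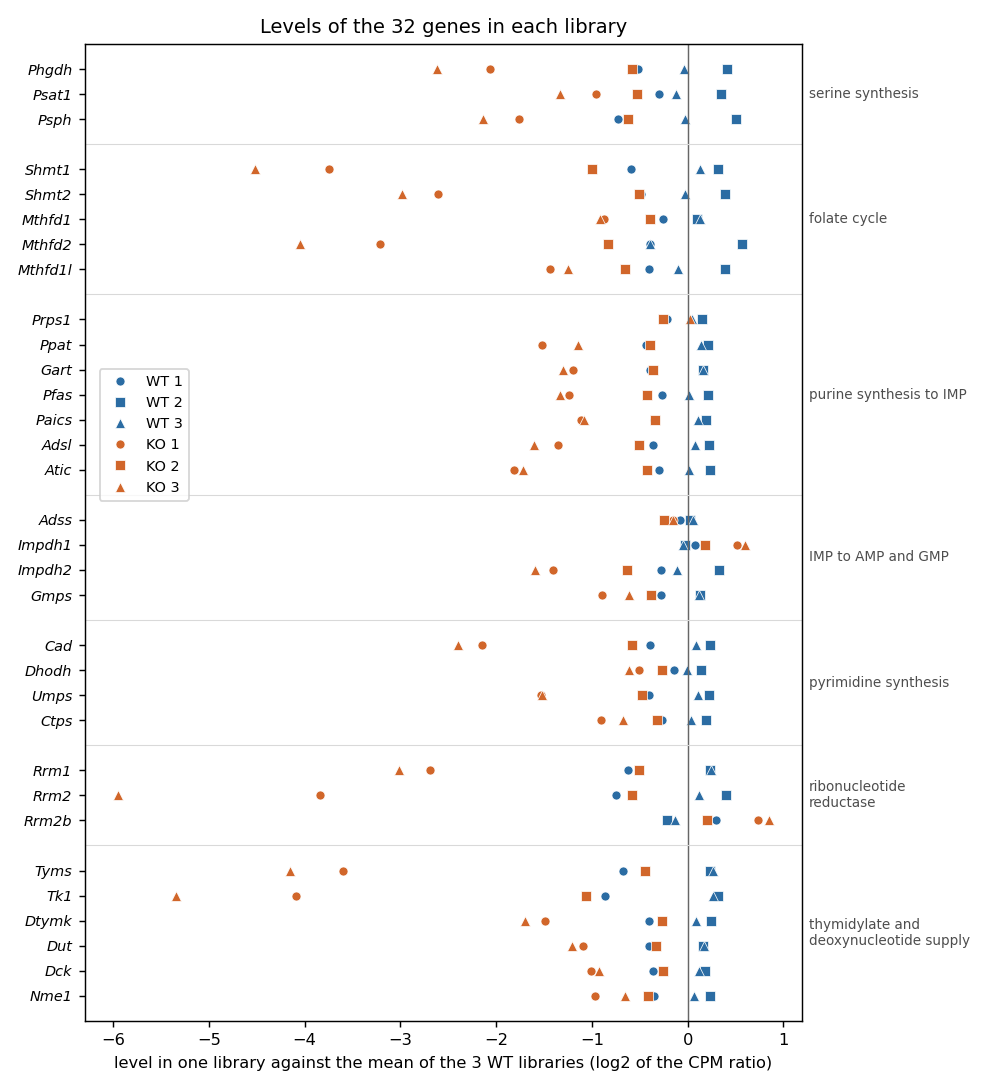
Level of each of the 32 genes in each library against the mean of the 3 WT libraries (x axis, log2 of the CPM ratio), in groups by role; blue marks are WT and orange marks KO libraries, with 1 shape per replicate number. KO 1 and KO 3 lie far to the left for Shmt1, Mthfd2, Rrm2, Tyms and Tk1, KO 2 lies beside WT 1, and Impdh1 and Rrm2b lie to the right in KO.

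In serine synthesis, Phgdh, the dehydrogenase that opens the pathway (chr3:98313171-98339969 in GRCm38), was measured at 151, 287 and 210.1 CPM in WT 1, WT 2 and WT 3, against 51.6, 145 and 35.2 CPM in KO 1, KO 2 and KO 3. All KO libraries were below all WT libraries, with KO 2 only just below WT 1. The log2 fold change was -1.51 over 6 libraries (SE 0.57, adjusted p = 0.184) and -2.35 over 4 (SE 0.40, adjusted p = 0.0344). Psat1, the aminotransferase of the next step, was at 245, 384 and 276 CPM in the WT and 155, 209 and 119.7 CPM in the KO libraries. Its groups did not overlap either, and its log2 fold change of -1.20 over 4 libraries missed the threshold (SE 0.32, adjusted p = 0.059), while that of -1.13 without KO 2 passed (adjusted p = 0.0183). Psph, the phosphatase that releases serine, was at 35.6, 83.9 and 58.0 CPM in WT, against 17.4, 38.5 and 13.5 CPM in KO. The library labelled KO 2 lay inside the WT range here, and over the 4 libraries Psph fell by 1.97 on the log2 scale (adjusted p = 0.0475). A stretch of 88 bases of the Psph span was shared with Cct6a, and whether reads were counted by strand is not given in the sources used here. Shmt2 likewise shared 32 bases with Ndufa4l2, and Cad 14 with Atraid.

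All 5 genes of the folate cycle were lower in every KO library than in every WT library, as were 14.6% of all genes. Shmt1 (chr11:60788897-60811265), the cytosolic hydroxymethyltransferase that turns serine into glycine, was at 46.7, 87.7 and 77.1 CPM in WT 1, WT 2 and WT 3, against 5.25, 35.2 and 3.07 CPM in KO 1, KO 2 and KO 3. Its mean was 4.86-fold lower in KO, with KO 2 far above KO 1 and KO 3. The log2 fold change was -2.30 over 6 libraries (SE 0.94, adjusted p = 0.184), -4.08 without KO 2 (adjusted p = 0.00798) and -4.03 over 4 (SE 0.46, adjusted p = 0.0343). Shmt2 (chr10:127517123-127522444), the mitochondrial enzyme of the same reaction, had 126, 232 and 174 CPM in WT, against 29.0, 125 and 22.4 CPM in KO. KO 2 was close to WT 1, and Shmt2 fell by 2.81 on the log2 scale over 4 libraries (SE 0.37, adjusted p = 0.0343).

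Mthfd2 (chr6:83305704-83326011), the mitochondrial dehydrogenase and cyclohydrolase of the cycle, was at 74.4, 145 and 74.8 CPM in WT 1, WT 2 and WT 3, against 10.6, 55.1 and 5.94 CPM in KO 1, KO 2 and KO 3. WT 2 stood above the other WT libraries, which were close to each other. The log2 fold change was -2.06 over 6 libraries (SE 0.86, adjusted p = 0.185) and -3.75 over 4 (SE 0.47, adjusted p = 0.0343). Mthfd1, the cytosolic trifunctional folate enzyme, was at 74.5, 95.0 and 97.2 CPM in WT, against 48.5, 67.6 and 47.2 CPM in KO. Mthfd1l, which releases formate in mitochondria, was at 27.9, 48.4 and 34.5 CPM in WT, against 13.6, 23.4 and 15.6 CPM in KO. Both were called over the 4 libraries with smaller log2 fold changes, -0.84 for Mthfd1 (adjusted p = 0.0481) and -1.40 for Mthfd1l (adjusted p = 0.0473). The Mthfd1 call was lost under RLE scaling.

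The 7 genes from ribose to IMP, the precursor of both purine nucleotides, had log2 fold changes from -1.19 to -0.17 over 6 libraries, all negative. Over the 4 libraries 5 of the 7 were called lower, where 13.9% of all genes were. Atic (chr1:71557156-71579403), which completes the ring, was at 101, 147 and 126 CPM in WT, against 35.3, 92.6 and 37.9 CPM in KO, with no overlap. Atic had the lowest fold change of the role, -1.19 over 6 libraries (SE 0.41, adjusted p = 0.184) and -1.77 over 4 (SE 0.24, adjusted p = 0.0343). Prps1, which makes the activated ribose that starts the pathway, was at 76.5, 98.5 and 91.2 CPM in WT 1, WT 2 and WT 3, against 74.4, 74.4 and 90.1 CPM in KO 1, KO 2 and KO 3. Its groups overlapped, with KO 3 above WT 1. Its log2 fold change was -0.17 (SE 0.16, adjusted p = 0.434) over 6 libraries and -0.10 (SE 0.22, adjusted p = 0.727) over 4, and it was the lone member of the role not called without KO 2.

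The enzymes between Prps1 and Atic gave similar values. Adsl is a lyase used both on the way to IMP and from IMP to AMP, and Pfas is the formylglycinamidine synthase. Neither gene's groups overlapped. The log2 fold changes over 4 libraries were -1.45 (adjusted p = 0.0358) for Adsl and -1.29 (adjusted p = 0.0348) for Pfas. Ppat, the committed step, and Gart, a trifunctional enzyme, had log2 fold changes of -1.26 (adjusted p = 0.0477) and -1.18 (adjusted p = 0.0415), and KO 2 lay within the WT range for both. Paics, a bifunctional carboxylase and ligase, was at 179, 262 and 246 CPM in WT, against 106, 180.2 and 108 CPM in KO, and missed the threshold over 4 libraries (-1.06, adjusted p = 0.0526). Ppat and Paics are transcribed away from each other on opposite strands, and their spans share 277 bases, so reads from that stretch could be counted for either gene.

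Past IMP the members parted. Impdh1 and Impdh2 encode isoforms of IMP dehydrogenase, the rate-limiting enzyme of GMP synthesis. Impdh2 (chr9:108560436-108565577), known as the isoform of growing cells, was at 26.3, 40.1 and 29.6 CPM in WT 1, WT 2 and WT 3, against 12.04, 20.6 and 10.6 CPM in KO 1, KO 2 and KO 3. Impdh1 (chr6:29200436-29216364) was at 42.2, 39.0 and 38.5 CPM in WT, against 56.9, 45.0 and 60.4 CPM in KO. Neither gene's groups overlapped, Impdh2 being lower and Impdh1 higher in every KO library. The fitted log2 fold change of Impdh2 was -1.17 (SE 0.32, adjusted p = 0.184) over 6 libraries and -1.56 (SE 0.28, adjusted p = 0.0358) over 4. That of Impdh1 was 0.42 (SE 0.15, adjusted p = 0.184) over 6, 0.52 (adjusted p = 0.0728) over 4 and 0.56 (adjusted p = 0.0155) without KO 2. Among the 3 sets of libraries it passed only without KO 2. Gmps, the last enzyme to GMP, was at 82.3, 109 and 109 CPM in WT, against 53.7, 76.9 and 65.3 CPM in KO. Adss, the first enzyme to AMP, was at 116, 125 and 127 CPM in WT, against 110.0, 104 and 110.1 CPM in KO, with no overlap for either gene. The log2 fold change of Adss was -0.20 over 6 libraries (SE 0.12, adjusted p = 0.262), and it was not called in any of the 3 sets. Of the Gmps span, 1101 bases were shared with Slc33a1.

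All 4 members of pyrimidine synthesis were lower in every KO library than in every WT library, against 14.6% of all genes. Cad (chr5:31054620-31078479), the trifunctional protein that starts the pathway, was at 125, 194 and 175 CPM in WT 1, WT 2 and WT 3, against 37.0, 109.6 and 31.2 CPM in KO 1, KO 2 and KO 3. KO 2 was close to WT 1, and KO 1 and KO 3 were far below. Its log2 fold change was -1.50 (SE 0.52, adjusted p = 0.184) over 6 libraries and -2.24 (SE 0.28, adjusted p = 0.0343) over 4. Dhodh (chr8:109593244-109608699), the mitochondrial dehydrogenase of the pathway, was at 23.0, 28.0 and 25.2 CPM in WT, against 17.8, 21.1 and 16.6 CPM in KO, and had the smallest difference of the role, -0.48 (SE 0.17, adjusted p = 0.184) over 6 and -0.58 (adjusted p = 0.0968) over 4. Umps, which makes UMP, was at -1.48 (adjusted p = 0.0353) and Ctps, which makes CTP, at -0.78 (adjusted p = 0.0667) on the same scale over 4, so Cad and Umps were the called members.

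Ribonucleotide reductase joins the large subunit Rrm1 to a small subunit, either Rrm2, the form of S phase, or Rrm2b, the p53-inducible form that also serves cells outside S phase. Rrm2 (chr12:24708254-24714146) was at 86.3, 192 and 157 CPM in WT 1, WT 2 and WT 3, against 10.1, 96.9 and 2.34 CPM in KO 1, KO 2 and KO 3. KO 2 exceeded WT 1, so the groups overlapped, while KO 3 was the lowest by far. The log2 fold change was -2.02 over 6 libraries (SE 1.24, adjusted p = 0.269), -4.55 without KO 2 (SE 0.73, adjusted p = 0.00969) and -4.50 over 4 (SE 0.82, adjusted p = 0.0358). Rrm1 (chr7:102441695-102469771) was at 116, 209 and 210.4 CPM in WT, against 27.7, 125 and 22.1 CPM in KO, with the same overlap of KO 2 and WT 1. Its fitted log2 fold change was -1.64 (adjusted p = 0.188) over 6 libraries and -2.72 (SE 0.35, adjusted p = 0.0343) over 4. Rrm2b (chr15:37923952-37961119) was at 39.4, 27.7 and 29.4 CPM in WT, against 53.6, 37.1 and 57.9 CPM in KO. KO 1 and KO 3 were above all WT libraries, and KO 2 was below WT 1. The log2 fold change of Rrm2b was 0.61 (SE 0.23, adjusted p = 0.184) over 6 libraries, 0.72 (adjusted p = 0.0725) over 4 and 0.80 (adjusted p = 0.0188) without KO 2, where it was called higher. In KO 3, Rrm2 was counted with 45 reads, against 3710 in WT 2.

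Among the genes of thymidylate and deoxynucleotide supply, Tk1 (chr11:117815519-117826087), the thymidine kinase of S phase, had the lowest log2 fold change of all 32 over 6 libraries. It was at 20.9, 47.4 and 45.8 CPM in WT 1, WT 2 and WT 3, against 2.22, 18.2 and 0.937 CPM in KO 1, KO 2 and KO 3. All KO libraries were below WT 1, which itself was below the other WT libraries. The fits gave a log2 fold change of -2.43 (SE 1.08, adjusted p = 0.19) over 6 libraries, -4.59 (adjusted p = 0.00798) without KO 2 and -4.45 (SE 0.63, adjusted p = 0.0343) over 4. Its span shared 585 bases with Afmid. Tyms (chr5:30038546-30073645), which methylates dUMP to dTMP with folate as the donor, was at 21.9, 41.4 and 42.1 CPM in WT, against 2.91, 25.8 and 1.98 CPM in KO, and KO 2 exceeded WT 1. For Tyms the log2 fold change was -1.80 (SE 1.00, adjusted p = 0.237) over 6 libraries and -3.71 (SE 0.44, adjusted p = 0.0343) over 4.

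The remaining genes of this role had smaller differences. Dtymk, the next kinase after Tk1 and Tyms, and Dut, which removes dUTP, were called over the 4 libraries at log2 fold changes of -1.56 (adjusted p = 0.0345) and -1.07 (adjusted p = 0.0481), with KO 2 inside the WT range for both. Dck, the deoxycytidine kinase of nucleoside salvage, was at 44.0, 64.2 and 61.3 CPM in WT, against 28.0, 47.2 and 29.7 CPM in KO, and Nme1, a nucleoside diphosphate kinase, at 142, 213 and 189 CPM in WT, against 92.8, 136 and 115 CPM in KO. Dck overlapped between groups and Nme1 did not. Neither was called over the 4 libraries, at -0.92 (SE 0.24, adjusted p = 0.0571) and -0.78 (SE 0.28, adjusted p = 0.0913), and both were called without KO 2. Nme1 and its neighbour Nme2 are closely related in sequence, and how reads that match both were assigned was not measured here.

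**Figure D2:**
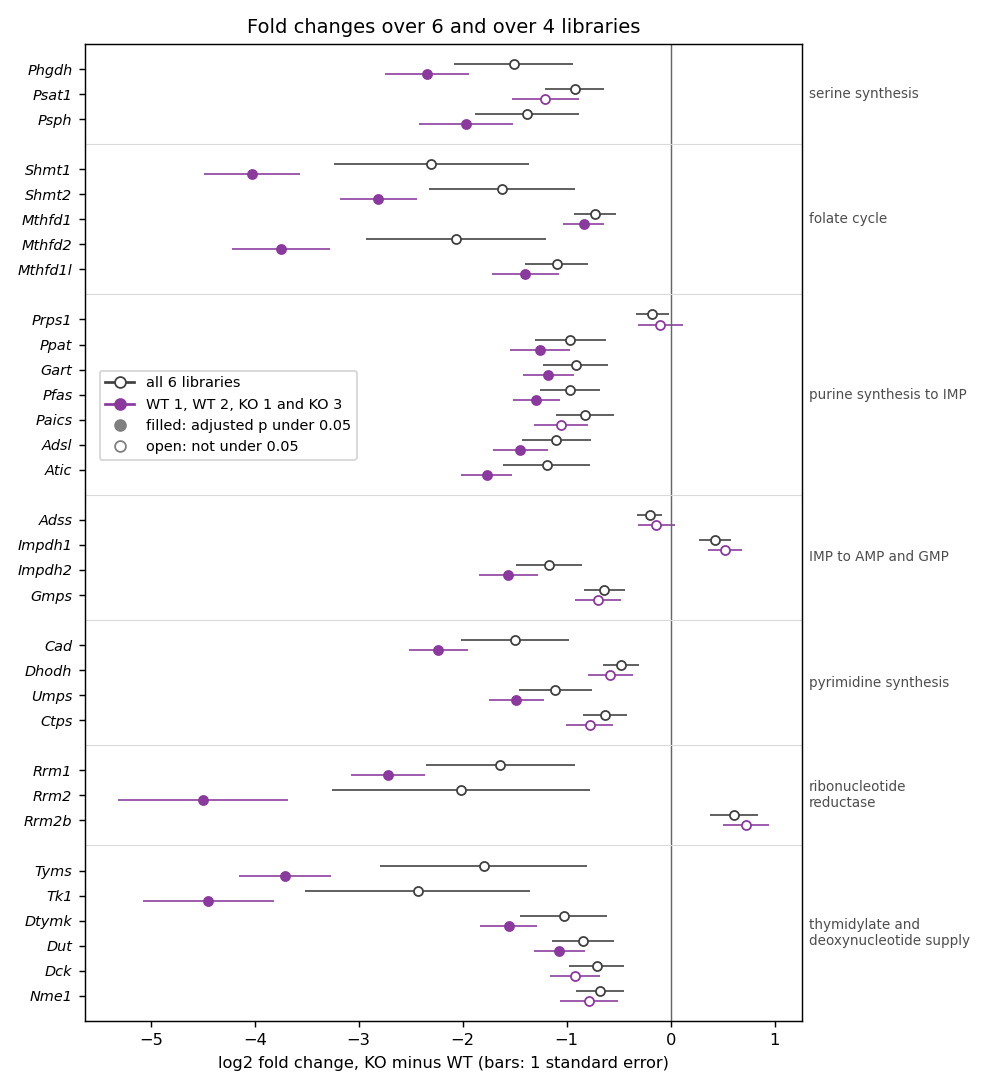
Log2 fold change (KO minus WT, x axis) of each gene with 1 standard error, over all 6 libraries (dark grey) and over WT 1, WT 2, KO 1 and KO 3 (purple); filled points have an adjusted p under 0.05. The purple points of 21 genes are filled and no dark grey point is, and Impdh1 and Rrm2b are the genes right of 0.

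Pairs of genes with related roles were also compared as ratios of counts within each library, which do not depend on the scaling of the library. With 3 libraries against 3, the exact two-sided permutation test over libraries cannot give a p below 0.1, and 5 pairs were tested. The log2 ratio of Rrm2 to Rrm2b was 1.13, 2.79 and 2.42 in WT 1, WT 2 and WT 3 and -2.40, 1.38 and -4.61 in KO 1, KO 2 and KO 3. Rrm2 reads thus outnumbered those of Rrm2b in all WT libraries and in KO 2, and were outnumbered in KO 1 and KO 3. The means were 2.11 ± 0.87 in WT and -1.88 ± 3.03 in KO (SD, n = 3 each), with an exact permutation p of 0.2 (0.2 adjusted over the 5 pairs).

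The log2 ratio of Impdh2 to Impdh1 was -0.68, 0.04 and -0.38 in the WT and -2.24, -1.13 and -2.51 in the KO libraries, with no overlap, and KO minus WT was -1.62. The log2 ratio of Tk1 to Dck was -1.07, -0.44 and -0.42 in WT and -3.64, -1.37 and -4.95 in KO, also apart, and KO minus WT was -2.68. The log2 ratio of Shmt1 to Shmt2 was -1.44, -1.40 and -1.17 in WT and -2.46, -1.82 and -2.86 in KO, so the cytosolic gene was lower relative to the mitochondrial one in every KO library, by 1.04 on average. The ratio of Mthfd1 to Mthfd1l went the other way, from 1.41, 0.97 and 1.49 in WT to 1.83, 1.53 and 1.60 in KO, a KO minus WT difference of 0.36 with WT 3 and KO 2 nearly equal. These 4 pairs each had an exact permutation p of 0.1, the smallest the design allows, and 0.125 adjusted over the 5 pairs.

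**Figure D3:**
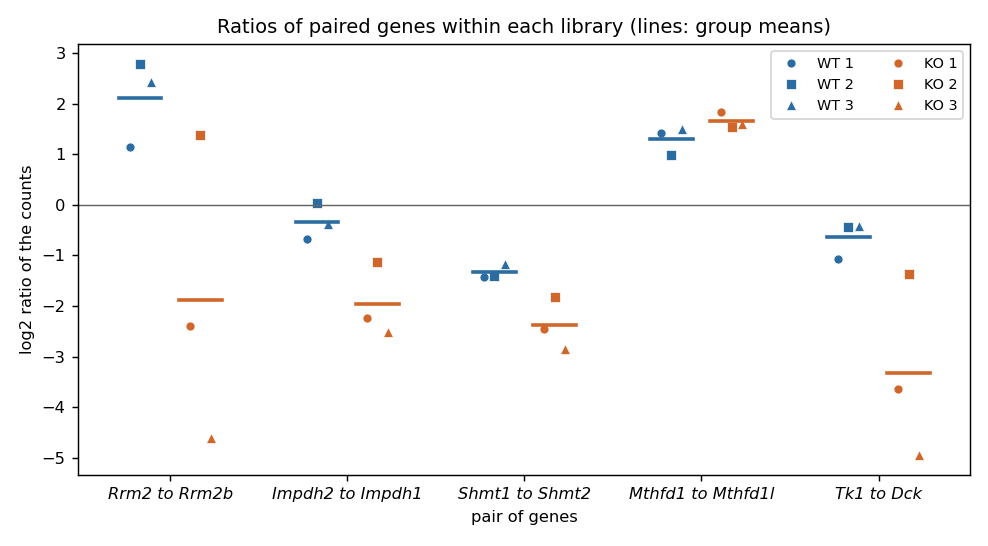
Log2 ratio of the read counts of 2 genes within each library (y axis) for the 5 pairs, with WT libraries in blue, KO libraries in orange and short lines at the group means. KO 2 lies between WT 1 and WT 3 for Rrm2 to Rrm2b and nearest to the WT libraries among the KO libraries for the other pairs shown.

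Levels of different genes were compared per length, with the authors' FPKM (counts divided by the length of the gene model and the library total). In WT tumors the mean FPKM ran from 157 ± 35.9 (SD, n = 3) for Nme1, 141 ± 38.5 for Psat1 and 124 ± 43.0 for Phgdh down to 9.89 ± 3.44 for Tyms and 7.55 ± 1.22 for Rrm2b. In this order, the ranges of all 31 neighbouring pairs overlapped. In KO tumors Nme1 and Psat1 kept ranks 1 and 2, with 88.4 ± 24.9 and 67.6 ± 26.0. Shmt1 moved from rank 14 to 29 (36.6 ± 12.1 to 7.19 ± 9.35), Tk1 from 16 to 30 (29.8 ± 12.3 to 5.37 ± 7.52) and Mthfd2 from 10 to 19 (50.8 ± 22.5 to 11.7 ± 14.2). Impdh1 moved from rank 27 to 9 (17.6 ± 0.46 to 21.0 ± 1.07), and Rrm2b from 32 to 21 (7.55 ± 1.22 to 10.2 ± 1.32). These FPKM carry no TMM factor, so changes between groups can differ from those in CPM. In CPM the KO mean was 1.36 times the WT mean for Impdh1 and 1.54 times for Rrm2b. In KO the SDs of Shmt1, Tk1 and Mthfd2 exceeded their means, with KO 2 the highest library each time.

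**Figure D4:**
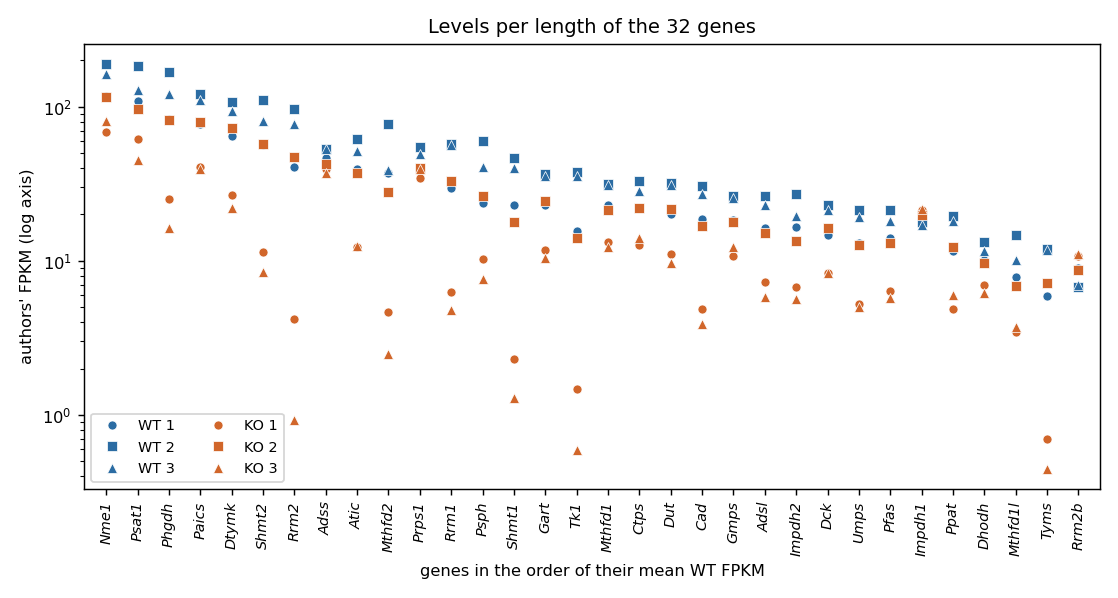
The authors' FPKM of each gene in each library (y axis, log scale), in the order of the mean WT level; blue marks are WT and orange marks KO libraries. Nme1 and Psat1 are highest, and the KO 1 and KO 3 marks of Rrm2, Shmt1, Tk1, Mthfd2 and Tyms lie farthest below the WT marks.

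The promoters of the members were searched in the RefSeq windows of GRCm38.p6, 250 bases before to 50 after a start site, which matched 29 of the 32 symbols (all but Dhodh, Pfas and Rrm2b). The letters searched, on both strands, were CACGTG (the E-box bound by Myc), TTTNGCGC and GGCGGGAA (E2F sites), CCAAT (the box bound by NF-Y) and TGATGNAA (the core of the amino acid response element bound by Atf4), none of which holds another. CACGTG stood in 6 of the 29 members' windows (Atic, Dtymk, Impdh2, Nme1, Paics and Tyms; 20.7%) and in 8.09% of the 27025 genes with a window. CCAAT stood in 14 of the 29 (48.3%, against 41.1% of all genes), GGCGGGAA in 4 (13.8% against 2.52%), TGATGNAA in 1 (Prps1, 3.45% against 4.51%) and TTTNGCGC in 0 (1.57% of all genes). These counts are a description of the letters only. The 250 bases before the start are shown for the 4 members with the lowest log2 fold changes over 6 libraries among those with a match, written 5′ to 3′ on the gene's strand. Capitals mark CCAAT, or ATTGG where it lies on the other strand, in Shmt1 (chr11:60811266-60811515, minus strand), Mthfd2 (chr6:83317605-83317854, minus) and Rrm2 (chr12:24708004-24708253, plus), and CACGTG in Tyms (chr5:30073626-30073875, minus).
Shmt1: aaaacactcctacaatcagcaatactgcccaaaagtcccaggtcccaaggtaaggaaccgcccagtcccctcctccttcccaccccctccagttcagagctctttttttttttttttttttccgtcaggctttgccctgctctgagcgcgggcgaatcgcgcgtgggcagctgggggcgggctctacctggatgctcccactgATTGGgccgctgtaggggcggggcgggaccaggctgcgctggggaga
Mthfd2: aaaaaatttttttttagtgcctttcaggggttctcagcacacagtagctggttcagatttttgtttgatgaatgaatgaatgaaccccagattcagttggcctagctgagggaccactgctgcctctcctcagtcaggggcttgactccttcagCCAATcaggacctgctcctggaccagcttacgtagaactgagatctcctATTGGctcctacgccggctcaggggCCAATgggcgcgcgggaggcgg
Rrm2: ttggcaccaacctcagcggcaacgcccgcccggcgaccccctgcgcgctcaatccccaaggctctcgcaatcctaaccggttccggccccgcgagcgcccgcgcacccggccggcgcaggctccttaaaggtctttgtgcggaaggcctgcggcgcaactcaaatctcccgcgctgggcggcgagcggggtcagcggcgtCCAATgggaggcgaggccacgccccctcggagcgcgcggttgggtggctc
Tyms: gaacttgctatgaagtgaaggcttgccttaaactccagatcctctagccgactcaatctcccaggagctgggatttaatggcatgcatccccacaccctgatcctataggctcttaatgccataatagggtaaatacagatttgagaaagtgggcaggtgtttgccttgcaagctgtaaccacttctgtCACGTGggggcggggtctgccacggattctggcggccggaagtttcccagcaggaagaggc
The box of Shmt1 lay 47 to 43 bases before the start and that of Rrm2 50 to 46 bases before it, while Mthfd2 held 3 boxes and Tyms an E-box 61 to 56 bases before its start. The Mthfd2 and Tyms starts lie inside the spans given for these genes. Tk1, the member with the lowest fold change, held none of the motifs in its window.

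Other genes of the same pathways were read from a list of 75, of which 70 were in the table and passed the filter. Over all 6 libraries 0 of the 70 were called, as were 0.0% of all genes. Without KO 2, 32 were called lower and 11 higher, beside 28.3% and 24.5% of all genes. Over the 4 libraries 19 were called lower and 1 higher, beside 13.9% and 2.87% of all genes. Their median log2 fold change was -0.30, beside -1.34 for the members. DESeq2 called 33 of them in all, beside 36.1% of all genes. The 20 calls became 43 without WT 1, 7 without KO 1 and 1 without KO 3, where 53.4%, 6.12% and 1.54% of all genes were called. Every KO library was below every WT library for 17 of the 70 and above for 6, beside 14.6% and 13.2% of all genes. By group, over the 4 libraries, 5 of 17 folate and glycine genes and 1 of 9 methionine cycle genes were called lower. So were 3 of 18 purine salvage and breakdown genes, 4 of 13 pyrimidine salvage and breakdown genes and 6 of 13 further deoxynucleotide genes.

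The gene with the lowest and the gene with the highest log2 fold change over 6 libraries are given for each group. Aldh1l2, the mitochondrial formyltetrahydrofolate dehydrogenase, was at 70.1, 113 and 83.8 CPM in WT, against 14.8, 71.4 and 9.22 CPM in KO. It fell by 2.94 on the log2 scale over the 4 libraries (adjusted p = 0.0343). Dmgdh, the dimethylglycine dehydrogenase, was at 1.67, 0.568 and 0.839 CPM in WT, against 2.62, 1.60 and 2.34 CPM in KO, and was not called. Cth, which makes cysteine by transsulfuration, fell by 2.41 (adjusted p = 0.0374), and its groups did not overlap. Ahcyl1, related to adenosylhomocysteinase, was at 363, 241 and 283 CPM in WT, against 520.2, 341 and 488 CPM in KO. It was not called over the 4 libraries (adjusted p = 0.128) but was called higher without KO 2 (0.77, adjusted p = 0.032).

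Ada, the adenosine deaminase, fell by 3.11 over the 4 libraries (adjusted p = 0.0343), with KO 2 inside the WT range. Gda, the guanine deaminase known from neurons, was at 159, 50.4 and 83.6 CPM in WT, against 315, 133 and 509.8 CPM in KO. Its log2 fold change was 1.97 over the 4 libraries (adjusted p = 0.0722) and 2.08 without KO 2 (adjusted p = 0.0199), where it was called higher. Uck2, a uridine and cytidine kinase of salvage, fell by 1.70 (adjusted p = 0.0343), and Dpyd, which degrades pyrimidines, had a log2 fold change of 0.48 (adjusted p = 0.494). Nme4, the mitochondrial nucleoside diphosphate kinase, fell by 2.64 (adjusted p = 0.0343). Nme7, a member of the same family associated with cilia and centrosomes, was the gene called higher over the 4 libraries (1.59, adjusted p = 0.0343). It was at 54.2, 33.9 and 39.0 CPM in WT, against 133, 58.9 and 133 CPM in KO with no overlap.

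Markers of dividing and of host brain cells differed between the same libraries. The summed level of 15 proliferation markers (Mki67, Top2a, Mcm2 and others) was 1657, 2944 and 2781 CPM in WT 1, WT 2 and WT 3. In KO 1, KO 2 and KO 3 it was 198, 1810 and 89.8 CPM. Over the 4 libraries 14 of the 15 were called lower, where 13.9% of all genes were. KO 2 was within the WT range for this sum and for 13 of the 15 markers, beside 54.6% of all genes. The sum over all 32 members was 2496, 3899 and 3355 CPM in WT and 1303, 2374 and 1272 CPM in KO, so every KO library was below every WT library. Myc, which encodes a factor known to act on many genes of nucleotide synthesis, was at 168, 285 and 189.7 CPM in WT and 8.78, 131 and 4.17 CPM in KO.

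The summed level of 12 neuron markers was 1838 to 5576 CPM in WT and 4719 to 15278 CPM in KO. It was highest in WT 1 among the WT and in KO 3 among the KO libraries. Over the 4 libraries 0 of the 12 were called, where 2.87% of all genes were called higher. Without KO 2, 11 were called higher, where 24.5% of all genes were. The sum of 8 myelinating oligodendrocyte markers was 1357 to 3484 CPM in WT and 3325 to 7743 CPM in KO, with 0 called over the 4 libraries. That of 8 astrocyte markers was 3195 to 4271 CPM in WT and 4656 to 6747 CPM in KO. Of these, 1 was called lower and 1 higher over the 4 libraries, beside 13.9% and 2.87% of all genes.

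Calls in the next lists are over the 4 libraries, where 13.9% of all genes were called lower. The sum of 9 microglia and macrophage markers was 804 to 849 CPM in WT and 497 to 1144 CPM in KO, with 4 called lower. That of 8 endothelial markers was 227 to 266 CPM in WT and 193 to 260.3 CPM in KO, with 0 called. That of 6 T cell markers was 23.9 to 29.7 CPM in WT and 5.15 to 37.2 CPM in KO, with 5 called lower. KO 2, left out of these calls, had the highest sum of the T cell and of the microglia and macrophage markers. It lay above every WT library for 5 of the 6 and 7 of the 9, beside 24.1% of all genes. Alas2, the red blood cell marker measured, was at 2.32 to 11.8 CPM in WT and 3.16 to 8.96 CPM in KO. No marker measured was at 0 in any library. What part proliferation, Myc or the content of host cells had in the levels of the 32 genes was not tested.

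**Figure D5:**
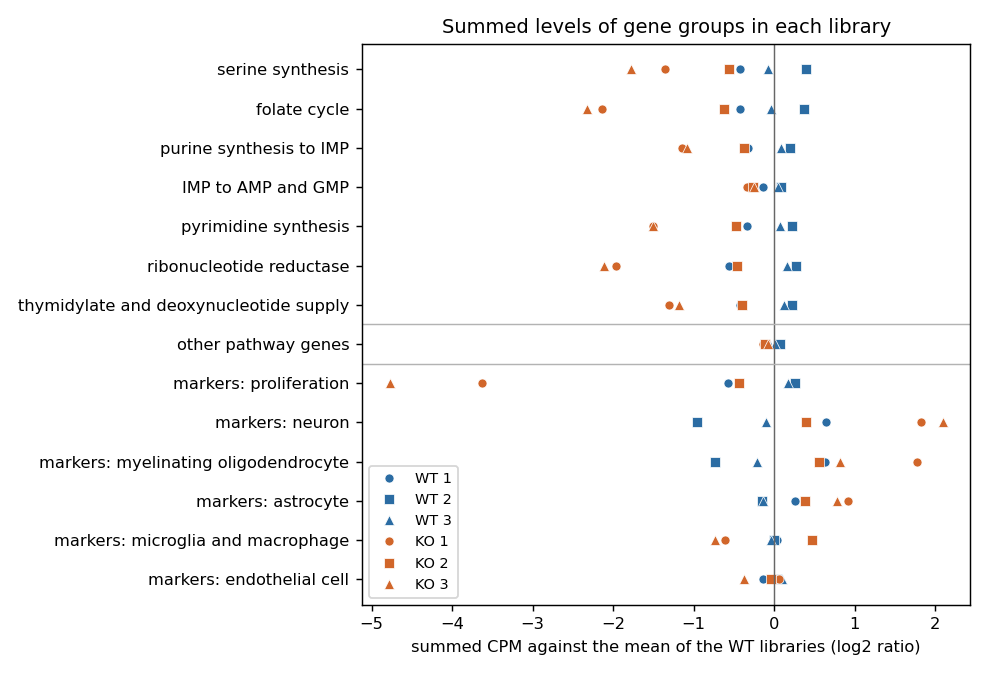
Summed CPM of each role of the 32 genes, of the other pathway genes and of 6 marker lists in each library, against the mean of the WT libraries (x axis, log2 ratio). KO 1 and KO 3 are lowest for the proliferation markers and highest for the neuron markers, and the folate cycle and ribonucleotide reductase are the roles with the lowest sums relative to WT.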

How the data were processed

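RNA-seq of 6 tumors was analysed, 3 from Esm1 WT and 3 from Esm1 KO hosts, grouped by the sample labels. The authors deposited whole-number read counts per gene, and FPKM made from them by dividing each count by the gene model's length and the library's total count. The labels name the NEBNext Ultra kit, CASAVA 1.8.2, mm10 and edgeR. The methods of the study name the Ovation kit, hg38 and HTSeq with uniquely mapped reads, so the kit remains uncertain. The deposited counts carry mouse gene symbols, as with mm10 and not hg38. The authors' fold changes, p-values, false discovery rates and 9 columns of normalized values were not used. A count is subject to counting error and to PCR copies, which were not marked. The full genotype of the mG7080 line is not reported here.

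Counts were fitted with edgeR 4.0.16 in R 4.3.3, by its quasi-likelihood F test (glmQLFit, glmQLFTest) after TMM scaling. Genes had passed filterByExpr at a minimum count of 10 and a minimum total of 15. P-values were adjusted by Benjamini-Hochberg over all genes tested, and a gene was called at an adjusted p under 0.05. All 6 libraries were fitted, then 5 without KO 2 and then WT 1, WT 2, KO 1 and KO 3. FPKM served to compare levels and ranks of genes within each group, and changes between groups were fitted on counts. Ratios of paired genes used log2 of counts plus 0.5, with an exact two-sided permutation test.

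Named in full were, in each of the 7 roles, the members with the lowest and highest fold change over 6 libraries, both genes of each pair, members called past 4-fold over the 4 libraries, members higher in KO, and the lowest and highest gene of each of 5 lists of other pathway genes. The members and lists were chosen with earlier results of these data known. Promoters and positions came from RefSeq (GRCm38.p6) and are given where the symbol matched. Alternatives were RLE and upper quartile scaling, 2 other filters, DESeq2 1.42.0, edgeR's exact test, limma-voom (limma 3.58.1), a replicate block, a pseudocount of 5 for the ratios and each library left out. The scripts were tested on simulated data. P-values weigh the difference between groups against the spread between these tumors, and 3 or 2 per group limit how well that spread is known.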

Additional observations from a re-analysis of the deposited data

How the results depend on the processing

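Scaling by RLE or upper quartile and both other filters left 0 members called over 6 libraries and 20 to 21 over 4, and the median log2 fold changes kept their sign in every alternative run. DESeq2 called 3 members over 6 libraries and 33 other pathway genes over the 4 libraries, where edgeR's quasi-likelihood test called 20. Over the 4 libraries limma-voom called 16 members, losing Dut, Mthfd1, Mthfd1l, Ppat and Psph, and edgeR's exact test 25. Single libraries weighed more. Leaving out one at a time gave 0 to 30 members called over 6 libraries (30 without KO 2) and 3 to 30 at an unadjusted p under 0.05. Over the 4 libraries it gave 5 to 30 members called, 5 to 11 past 4-fold, 1 to 43 other pathway genes called and a median log2 fold change of -1.63 to -0.98. The lone library of a group was then assumed to vary like the other group's. Members with every KO library below every WT library numbered 19 to 30 with 1 library left out, and 18 to 19 under other scalings. These settings, those for the unadjusted p and those of single genes over the 4 libraries were chosen after the data were seen. Prps1 ranged from -0.27 to 0.10 over the 4 libraries, reversing without WT 2 (0.10) and without KO 1 (0.05). The causes of these shifts were not tested. The labels do not say whether replicate numbers pair the samples, and the counts did not settle it. Deviations of WT 1 and KO 1, WT 2 and KO 2, and WT 3 and KO 3 correlated at 0.55, 0.60 and -0.21 across genes. With the replicate block over 6 libraries 0 members were called by edgeR's quasi-likelihood test (smallest adjusted p = 0.065), at a median of -1.05. All 5 pair ratios kept their direction in every alternative, including a pseudocount of 5. Every member had at least 18 reads in each library, so depth set no limit on which members could be tested.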
